A study of Mus musculus with 2 samples.

Results

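The immediate early transcription factor genes were followed in mouse CT26 colorectal cancer cells with and without decitabine (DAC). The members were 10 symbols, Egr1, Egr2, Egr3, Fos, Fosb, Fosl1, Fosl2, Jun, Junb and Ier3, matched through GENCODE mouse release M21 to the Ensembl identifiers of the count tables. All 10 were found among the 24223 genes of the tables, and all 10 were among the 13545 genes with at least 1 CPM, the count of a gene scaled to a common library size, in either library. The study asked whether low-dose DAC, a cytosine analogue that inhibits DNA methyltransferases, changes the expression programme of colorectal tumor cells. The DAC group received 1 μM DAC in 3 doses given 24 h apart and was then kept for 24 h in medium free of the drug. The control group (Ctrl) was the same line carried in parallel without DAC. Each group was 1 library from 1 preserved laboratory line, made after selection of mRNA with poly-T beads, so no difference below has a replicate check, and every interval covers counting error only.

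Immediate early genes are switched on within minutes of a growth factor, stress or adhesion signal, without new protein synthesis, and their transcripts are usually short-lived. ERK and other MAP kinases activate the ternary complex factors that sit with SRF on CArG boxes, while CREB and ATF proteins act through a cAMP response element. The proteins made then control a second wave of genes: FOS and JUN proteins pair as AP-1, and EGR proteins bind GC-rich sites and induce their own corepressors. Ier3 encodes a stress-inducible regulator of survival and ERK signaling rather than a DNA-binding factor, and it too is rapidly induced.

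RefSeq promoter windows of GRCm38.p6, from 250 bases before to 50 after an annotated start, were read for the 7 members that have one in the table used. Stretches of the 150 bases before a start are printed for the 4 members whose window held an SRF, CREB or EGR motif, because these are the elements through which the family is known to be induced and to act on itself. Capitals mark the motif, lower case the rest, and each run reads from 5′ to 3′ along the strand of the gene. Egr2, the plus strand at chr10:67537719-67537868, carries a CArG box and the core of the ATF/CREB site, here read as ACGTCA from the opposite strand. Fos, the plus strand at chr12:85473740-85473889, carries the same core as TGACGT. Fosb, the minus strand at chr7:19310046-19310195, and Fosl2, the plus strand at chr5:32136322-32136471, each carry an EGR site.
Egr2: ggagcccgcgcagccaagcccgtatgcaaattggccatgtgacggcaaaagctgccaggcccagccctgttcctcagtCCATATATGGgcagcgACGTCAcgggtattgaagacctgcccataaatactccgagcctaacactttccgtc
Fos: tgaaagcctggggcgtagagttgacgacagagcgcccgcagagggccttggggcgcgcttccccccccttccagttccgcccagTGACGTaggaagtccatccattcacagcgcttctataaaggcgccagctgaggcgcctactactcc
Fosb: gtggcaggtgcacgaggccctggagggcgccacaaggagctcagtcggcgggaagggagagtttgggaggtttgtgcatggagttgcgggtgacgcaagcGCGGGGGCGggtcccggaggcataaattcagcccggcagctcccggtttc
Fosl2: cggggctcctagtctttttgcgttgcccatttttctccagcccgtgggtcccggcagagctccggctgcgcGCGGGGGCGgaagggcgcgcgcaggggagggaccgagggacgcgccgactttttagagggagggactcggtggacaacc
The motifs were searched on both strands as TGACGT for the ATF/CREB core, TGACGTCA for the full ATF/CREB site, TGANTCA for the AP-1 site, GCGNGGGCG for the EGR site and GGGCGG for the SP1 site, with the CArG box in its usual form. Of all 32851 windows, 1.63% held a CArG box, 7.51% the ATF/CREB core, 1.79% the full ATF/CREB site, 7.81% an AP-1 site, 5.55% an EGR site and 35.7% an SP1 site. The full ATF/CREB site contains the core, and the EGR site of Fosb and of Fosl2 overlapped an SP1 match. A CArG box was found in 4 of the 5 windows of Egr2, and no member window held the full ATF/CREB or the AP-1 letters. The ATF/CREB core of Fos lay at -66 to -61 from the start, the EGR site of Fosb at -50 to -42 and that of Fosl2 at -79 to -71. DAC inhibits DNA methyltransferases, and these enzymes act on CpG sites, so CpG dinucleotides were also counted. The windows held 32 in Fosl2, 25 in Fosb, 21 in Junb, 20 in Fos, 15 in Jun, 10 in Ier3 and 16 to 32 in the Egr2 windows, against a median of 7 over all windows (quartiles 3 and 20). A match is a description of the letters, and methylation was not analysed here.

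The counts summed to 34221886 in Ctrl and 35163420 in DAC. They were scaled with TMM factors (trimmed mean of M-values), after which 1 CPM was worth 32.0 counts in Ctrl and 37.6 in DAC. A gene was called when its CPM ratio of DAC to Ctrl was at least 2, or at most 0.5, with the exact 95% counting interval on the same side of 1. Alternative scalings used library totals, which add 0.19 to every log2 ratio, or 8 reference genes such as Rplp0, whose own log2 ratios ran from -0.95 to 0.84 with 0 called. By this rule 10.8% of the 13545 genes were called higher in DAC and 5.29% lower. The colorectal label was checked against colon epithelial markers, of which Krt18 was well counted in both libraries (1797 in Ctrl, 3579 in DAC), Krt8 rose from 5 to 4445 counts (26.9% of its 50-base stretches occur in other genes), Cdh1 had 0 and 9 counts, and Vil1 had 0 and 12. Of 9 listed epithelial genes, 7 were in the tables and 4 passed the CPM minimum. The 7 summed to 75.3 CPM in Ctrl and 257 CPM in DAC (75.1 and 139 without Krt8). Called higher were 3 of the 4 (10.8% over all genes), Krt8, Krt20 (593 and 1548 counts) and Krt19 (12 and 58), while Krt18 had a ratio of 1.70. Krt8 and Krt19 passed the CPM minimum only through DAC, so they could not have been called lower. The mesenchymal list of 7 genes was at 8169 and 3326 CPM with 3 lower. Of these, Fn1 went from 6577 to 1742 CPM, Zeb2 from 6967 to 3749 counts (ratio 0.459) and Snai2 from 3862 to 2123 (0.468). The 6 genes other than Fn1 summed to 1592 and 1584 CPM, a sum in which Vim was the largest part (1128 and 1297 CPM). Vim, Twist1 and Cdh2 had ratios above 1, Zeb1 had one of 0.916, and none of them was called. The fibroblast list of 6 genes was at 1765 and 1094 CPM with 0 called and a median log2 ratio of 0.26, and without Col1a2 (1651 and 973 CPM) it summed to 114 and 121. The part of these shifts in the results below was not tested. Markers of other cells were low. Only 2 of 7 listed leukocyte genes were in the tables, and 0 of these 2 and 0 of 4 endothelial genes reached 1 CPM in either library. Ptprc, the pan-leukocyte marker, had 3 and 0 counts.

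Of the 10 members, 1 was called higher in DAC and 0 lower, beside the 10.8% and 5.29% over all genes. The gene called was Egr1. The median log2 ratio of the members was -0.07, against -0.02 over all genes tested, whose quartiles were -0.39 and 0.43, and 83.9% of all genes stayed within 2-fold. The ratio lay above 1 in 4 members and below 1 in 6, beside 6595 and 6950 of the 13545 genes tested. For Fosl1, Fosl2, Jun and Junb the side of 1 turned in at least 1 alternative scaling or centring. Summed over the members, the level went from 929 to 1111 CPM, a ratio of 1.20 (1.18 to 1.21). Without Egr1 the sum was 757 CPM in Ctrl and 729 CPM in DAC, a ratio of 0.963 (0.946 to 0.980). Library totals, which add 0.19 to every log2 ratio, put this ratio above 1. In a bulk library, a change in the number of cells that express a gene and a change in RNA per cell cannot be told apart.

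**Figure D1:**
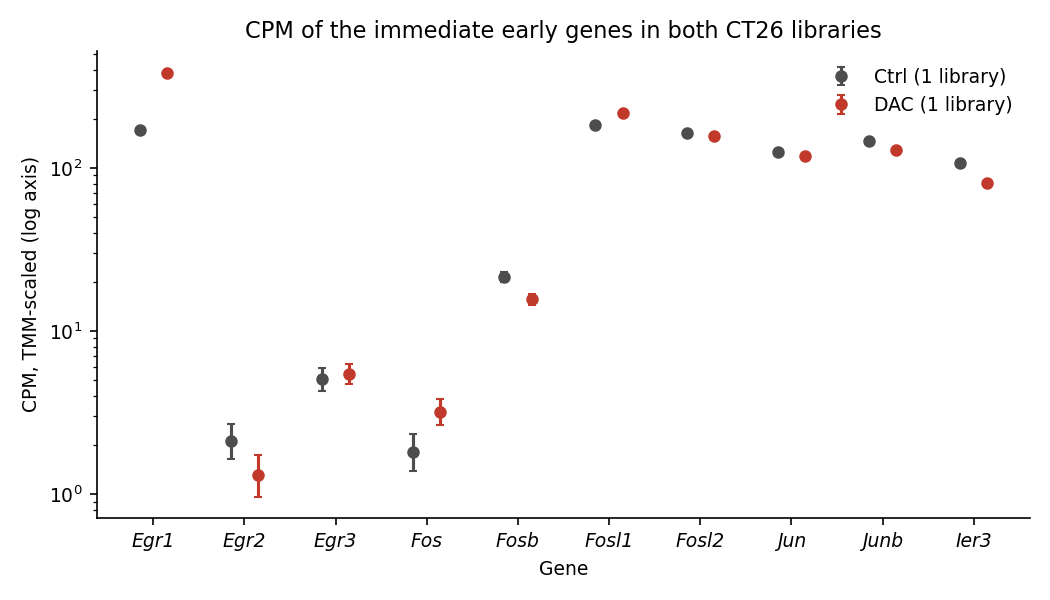
Level of each member in the Ctrl library (grey) and the DAC library (red), in TMM-scaled CPM on a log axis, with 95% counting intervals as bars and 1 library a point. Egr1 moves from 171 to 382 CPM, while Egr2, Fos and Egr3 lie below 10 CPM in both libraries.

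Egr1 encodes a zinc finger factor that binds GC-rich promoter sites and is induced by nearly every mitogen. Its gene (ENSMUSG00000038418) had 5492 counts in Ctrl and 14337 in DAC, or 171 CPM (167 to 176) and 382 CPM (375 to 388). The DAC library was the higher by counting error alone, which leaves out any spread between cultures. The ratio was 2.22 (2.16 to 2.30), a log2 ratio of 1.15, above that of 91.0% of the genes tested. The gain of 210 CPM ranked 30 among 13545 genes, and the rank of Egr1 by CPM moved from 1321 to 339. Centring the log2 ratios within 20 bins of transcript GC content brought the value to 0.89 and ended the call.

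Egr2, known for its role in Schwann cell myelination and hindbrain patterning, was counted 68 times in Ctrl and 49 times in DAC. Its level was 2.12 CPM in Ctrl and 1.30 CPM in DAC, a ratio of 0.614 (0.416 to 0.900), so that the interval lay below 1 and the gene was not called. The gene spans chr10:67535475-67542188 on the plus strand, and 3 of its windows hold the CArG box shown above, while a different CArG box lies in 1 further window. Egr3, which acts in muscle spindles and lymphocytes, lies at chr14:70077203-70082614 on the plus strand. It had 162 counts in Ctrl and 206 in DAC, or 5.06 and 5.48 CPM, with a ratio of 1.08 (0.878 to 1.34) whose interval holds 1. Per kilobase of exon, Egr1 made up 95.6% of the summed level of the 3 EGR genes in Ctrl and 98.1% in DAC, and the sum went from 40.0 to 86.7 CPM per kilobase. The EGR corepressor Nab2, itself known as an EGR target, had 6064 counts in Ctrl and 6647 in DAC (ratio 0.934, 0.902 to 0.967), and Nab1 had 2429 and 3565 (1.25, 1.19 to 1.32). Of these 2 corepressors, 0 were called.

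Among the FOS genes, Fos encodes the prototype partner of the JUN proteins. It lies at chr12:85473890-85477273 on the plus strand and was counted 58 times in Ctrl and 120 times in DAC, or 1.81 CPM (1.38 to 2.34) and 3.19 CPM (2.65 to 3.82). These intervals do not overlap, with DAC the higher library, but they cover counting error only. The ratio of 1.76 (1.28 to 2.46) stayed under 2-fold. Scaling by library totals or by the reference genes gave a log2 ratio of 1.01 and a call. Fosb, a paralogue best known from neurons, lies at chr7:19302696-19310051 on the minus strand. It had 686 counts in Ctrl and 588 in DAC, or 21.4 and 15.6 CPM, with a ratio of 0.730 (0.653 to 0.817). Fos and Fosb thus lay on opposite sides of 1.

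Fosl1 encodes FRA-1, the FOS protein associated with invasive and mesenchymal tumor cells and with sustained ERK activity. It lies at chr19:5447547-5455946 on the plus strand. The gene had 5858 counts in Ctrl and 8204 in DAC, or 183 and 218 CPM, and its ratio of 1.19 (1.15 to 1.23) was above 1 but within 2-fold. Its log2 ratio of 0.26 became -0.01 when centred within the GC bins. The exons of Fosl1 share 1163 bases, 57.2% of their length, with Ccdc85b on the opposite strand, and no source used here says whether reads were counted by strand. Ccdc85b was counted 205 times in Ctrl and 527 times in DAC, a ratio of 2.19 (1.86 to 2.59) and 3.50% and 6.42% of the Fosl1 counts. Fosl2, which encodes FRA-2, lies at chr5:32135801-32157842 on the plus strand. It had 5239 counts in Ctrl and 5897 in DAC, or 164 and 157 CPM, with a ratio of 0.959 (0.924 to 0.996). The sign of its log2 ratio of -0.06 turned by library totals and by the reference genes.

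Compared per kilobase of exon, Fosl1 stood at 90.0 CPM per kilobase in Ctrl and 107 in DAC, Fosl2 at 16.9 and 16.2, Fosb at 3.43 and 2.51, and Fos at 0.770 and 1.36. The order of these 4 levels was the same in both libraries. Fosl1 carried 81.0% of the summed FOS level in Ctrl and 84.2% in DAC, and Fos 0.693% and 1.07%. FOS transcripts in these cells were therefore mostly those of Fosl1 with and without DAC. The share of Fosl1 depends on the length used and was 75.7% and 79.8% by the longest transcript, or 54.0% and 59.9% by coding length.

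**Figure D2:**
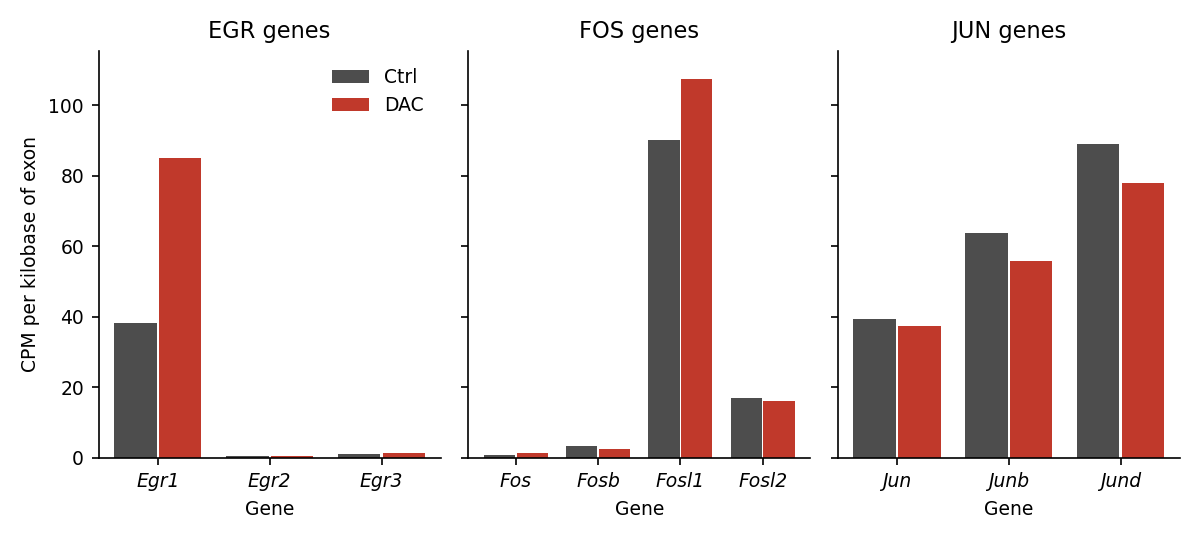
Level per kilobase of exon (CPM per kilobase, linear axis from 0) of the EGR, FOS and JUN genes in the Ctrl library (grey) and the DAC library (red), with 1 library a bar. Egr1, at 38.2 and 85.1 CPM per kilobase, is the EGR gene with a visible level, and Fosl1 is the tallest FOS bar in both libraries.

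The JUN genes were well counted, and their ratios lay between those of Fosl2 and Ier3. Jun encodes the AP-1 subunit that can pair with itself and is phosphorylated by JNK, and it lies at chr4:95049034-95052222 on the minus strand. It had 4030 counts in Ctrl and 4464 in DAC, or 126 and 119 CPM, with a ratio of 0.944 (0.904 to 0.985). The sign of its log2 ratio of -0.08 turned by library totals and by the reference genes. Junb, a weaker activator that can oppose Jun, lies at chr8:84974484-84978718 on the minus strand. It had 4706 counts in Ctrl and 4836 in DAC, or 147 and 129 CPM, with a ratio of 0.876 (0.841 to 0.912), and its log2 ratio of -0.19 reached 0.00016 by library totals. Jund, the JUN gene that is expressed without a stimulus and is not an immediate early gene, had 4756 and 4879 counts and a ratio of 0.874 (0.840 to 0.910). Per kilobase of exon, Jund held 46.3% of the summed JUN level in Ctrl and 45.5% in DAC, Junb 33.2% and 32.7%, and Jun 20.5% and 21.8%. Short stretches of exon are shared on opposite strands between Jun and Junos (232 bases, 67 and 105 counts) and between Junb and Prdx2 (173 bases, 3147 and 4571 counts).

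Ier3 lies at chr17:35821684-35822923 on the plus strand. It had 3443 counts in Ctrl and 3031 in DAC, or 108 and 80.7 CPM, with a ratio of 0.750 (0.714 to 0.788) that lay below 1 but within 2-fold. Its level was 95.1 CPM per kilobase of exon in Ctrl and 71.3 in DAC, the highest of the members in Ctrl and after Fosl1 and Egr1 in DAC. By the longest transcript, Fosl1 stood above it in Ctrl as well, at 98.1 CPM per kilobase.

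**Figure D3:**
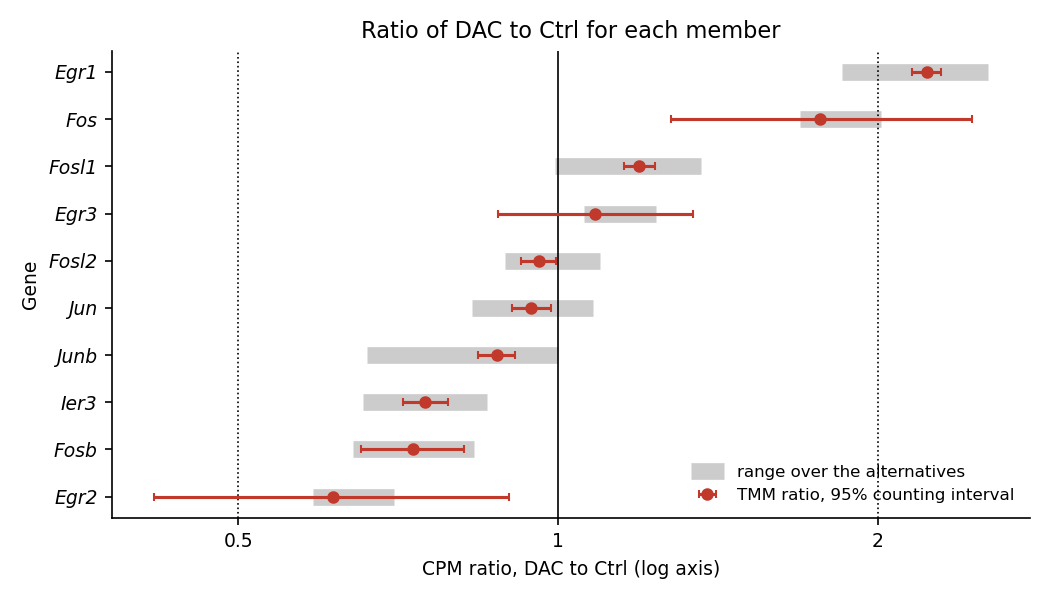
CPM ratio of DAC to Ctrl of each member on a log axis, with 95% counting intervals in red and the range over the alternative scalings, filters and depths in grey. The dotted lines mark the 2-fold rule, which Egr1 passes at 2.22, and the grey range of Egr1 runs from 1.85 to 2.54.

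Changes were also set against each other within the libraries, as the ratio of 2 ratios, since these values do not depend on the scaling between libraries. Of the 45 pairs of members, 35 had an interval that excluded 1, and 25 did when the counts were divided by 3. Relative to Egr2, Egr1 was higher in DAC by a factor of 3.62 (2.47 to 5.35). Against Fosb the factor was 3.05 (2.71 to 3.42), against Ier3 2.97 (2.80 to 3.14), against Junb 2.54 (2.41 to 2.67), against Jun 2.36 (2.23 to 2.49), against Fosl2 2.32 (2.21 to 2.44), against Egr3 2.05 (1.66 to 2.54) and against Fosl1 1.86 (1.78 to 1.95). Fos was the exception, with a factor of 1.26 whose interval of 0.904 to 1.74 holds 1. Egr1 and Fos could therefore not be told apart at this depth, while Egr1 stood above the other 8. Within the FOS genes, Fos was higher relative to Fosb by a factor of 2.41 (1.71 to 3.43) and relative to Fosl1 by 1.48 (1.07 to 2.06), although the latter interval holds 1 with the counts divided by 3. Fosl2 and Jun differed by a factor of 1.02, with an interval of 0.960 to 1.08 that holds 1.

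**Figure D4:**
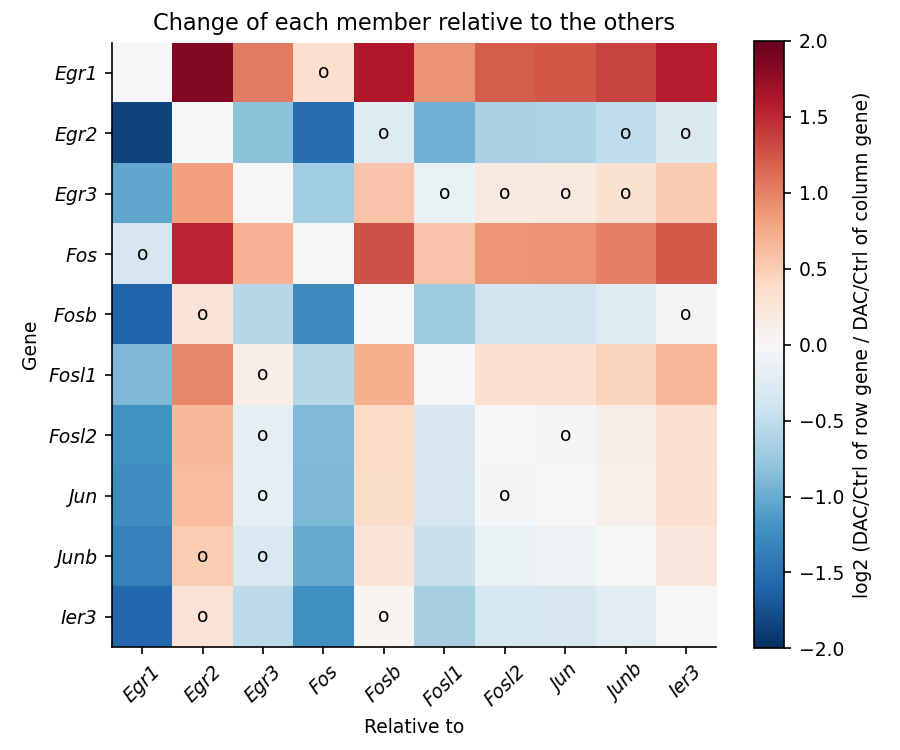
Change of each member (row) relative to each other member (column) as a log2 ratio of the DAC to Ctrl ratios, from blue (the row gene lower) to red (the row gene higher), with a circle where the 95% counting interval holds no change. The rows of Egr1 and Fos are red against nearly all others, and 10 of 45 pairs carry a circle.

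The genes around the members were described from 12 lists on the pathway, which together held 151 genes past the CPM minimum. Of these, 16 (10.6%) were called higher and 9 (5.96%) lower, close to the 10.8% and 5.29% over all genes, with a median log2 ratio of -0.01. Upstream, 0 of 15 genes of the ERK cascade were called. Ksr1, the scaffold of the cascade, came nearest, with 247 counts in Ctrl and 577 in DAC (ratio 1.99), and is called by library totals, the reference genes, DESeq2 or upper-quartile factors, and centring on all genes. Braf had 2698 and 1842 counts (ratio 0.582), and Shc1 6960 and 6556 (0.803). Shc1 was the most abundant of the list in Ctrl, and Mapk3, the ERK1 gene, in DAC, with 4987 and 8200 counts (ratio 1.40). SRF and its cofactors had 0 of 7 called and a median log2 ratio of 0.26, with Srf at 1396 and 1957 counts (ratio 1.19), Mrtfa at 1284 and 2432 (1.61) and Fhl2 at 3829 and 3235 (0.720). In the JNK, p38 and ERK5 list 2 of 15 (13.3%) were higher, both from low counts. These 2 passed the CPM minimum only through DAC, and with a CPM of at least 5, 0 of 13 were higher. Mapk10, which encodes the JNK isoform typical of neurons, rose from 10 to 83 counts and Map2k6, an activator of p38, from 24 to 95, while Mapk14, the abundant p38 kinase, had 2255 and 3700 counts (ratio 1.40).

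Among 10 other AP-1 subunits and bZIP partners, 1 was higher and 0 lower. Batf2, a partner of JUN proteins known from interferon-stimulated macrophages, rose from 16 to 127 counts, by 6.76-fold (4.01 to 12.2). It passed the CPM minimum only through DAC, and with a CPM of at least 5, 0 of 7 were higher. Atf3, a stress-induced repressor, had 66 and 86 counts (ratio 1.11, 0.796 to 1.55), and Jdp2, a repressor of AP-1, had 1598 and 2914 (1.55, 1.46 to 1.65). Mafg, the most abundant of the list by the sum of both libraries and in DAC but not in Ctrl, had 4660 and 6977 counts (ratio 1.28).

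Of 36 other immediate early genes, 4 were called higher (11.1%) and 4 lower (11.1%), beside 10.8% and 5.29% over all genes. Their median log2 ratio was -0.24. Library totals gave 6 higher and 1 lower, and centring within GC bins gave 1 and 2. Arc, best known from synapses, rose from 14 to 143 counts, by 8.70-fold (5.02 to 16.3). It passed the CPM minimum only through DAC, and with a CPM of at least 5, 3 of 35 were higher and 4 lower. Ier5l rose by 2.43-fold (1.93 to 3.08), Gadd45b, a stress sensor, by 2.37-fold (2.10 to 2.69) and the ERK phosphatase gene Dusp2 by 2.15-fold (1.64 to 2.85). These 3 calls end when log2 ratios are centred within GC bins. Ptgs2, which encodes the inducible cyclooxygenase, went from 64154 to 26011 counts and from 2003 to 692 CPM, and was 2.89-fold lower (2.85 to 2.94). Klf6 was 2.16-fold lower, Tiparp 2.05-fold and Plk3 2.05-fold, and these 3 calls end by library totals and by the reference genes. Nr4a1, Myc and Ier2 were not called, with ratios of 1.53, 0.635 and 1.10. Among 12 genes of ERK transcriptional output, 0 were higher and 1 was lower: Epha2, an ephrin receptor, had 45494 counts in Ctrl and 18702 in DAC and was 2.85-fold lower (2.81 to 2.90).

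**Figure D5:**
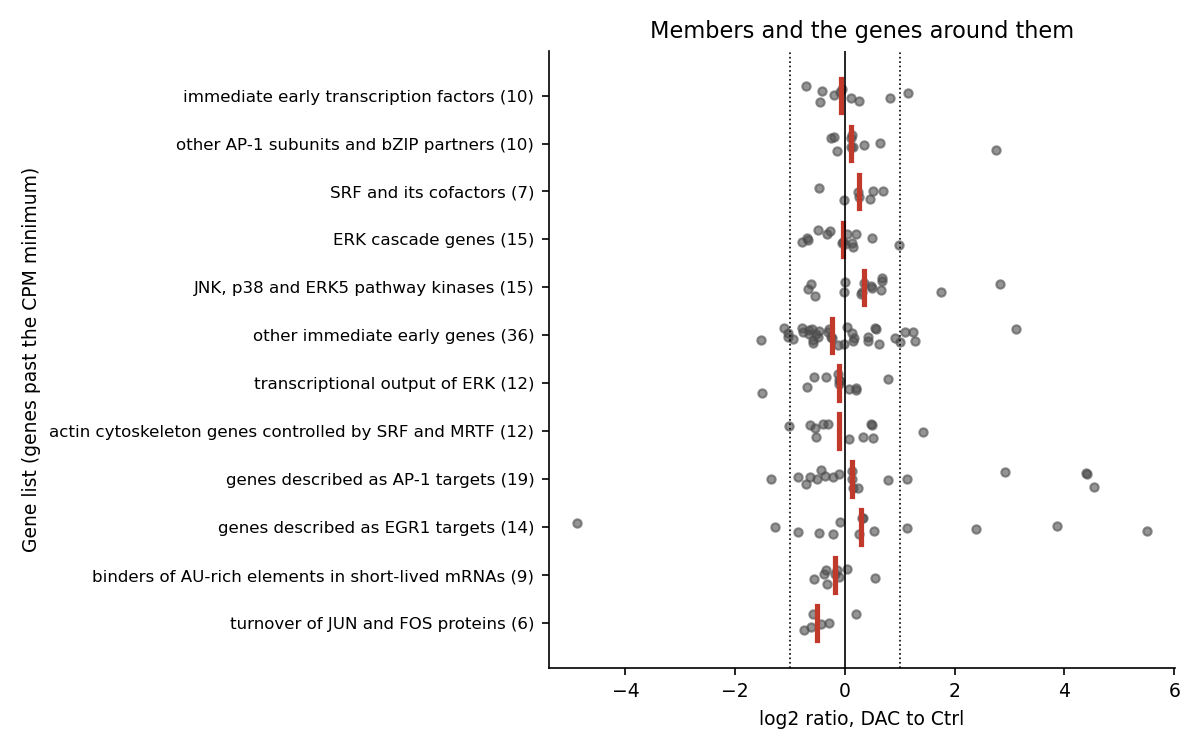
log2 ratio of DAC to Ctrl of every gene past the CPM minimum (grey points) in the members' list and in 11 pathway lists (gene numbers beside the names), with the median as a red line. Dotted lines mark 2-fold. Most medians lie near 0, and the points farthest out belong to genes described as AP-1 or EGR1 targets.

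Downstream, the actin genes controlled by SRF and MRTF had 1 of 12 higher and 1 lower. Actg1, cytoplasmic gamma actin, rose by 2.68-fold (2.59 to 2.77), although 56.7% of its 50-base stretches also occur in other genes. Ankrd1 was 2.03-fold lower (1.96 to 2.11), a call that ends by library totals and under GC centring, and Actb had 60753 and 99829 counts (ratio 1.40). Genes described as AP-1 targets had 5 of 19 higher (26.3%) and 1 lower (5.26%), beside 10.8% and 5.29% over all genes, with a median log2 ratio of 0.13. Of the genes called, Nqo1, Plau, Mmp10 and Mmp3 passed the CPM minimum only through DAC, and Il6 only through Ctrl. With a CPM of at least 5, 2 of 15 were higher and 0 lower, and the median was -0.10. Nqo1, a quinone reductase also controlled by NRF2, rose from 18 to 491 counts, by 23.2-fold (14.6 to 39.6). Plau, the urokinase gene, had 0 counts in Ctrl and 75 in DAC, a ratio of 21.3 against a floor of 3 counts, with a lower counting bound of 16.9. The matrix proteases Mmp10 (3 and 74 counts, ratio 21.0, 6.92 to 104) and Mmp3 (6 and 53 counts, ratio 7.53, 3.24 to 21.4) rose from near the floor. Tgfb1, on both target lists, rose by 2.19-fold (1.99 to 2.41), and Il6, a cytokine, was lower with 56 and 26 counts, a call that ends under GC centring. Fth1, the most abundant gene of the list in DAC and by the sum of both libraries, had a ratio of 1.18.

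Genes described as EGR1 targets had 4 of 14 higher (28.6%) and 2 lower (14.3%), beside 10.8% and 5.29% over all genes, with a median log2 ratio of 0.29. This list was also chosen with earlier results of these data known. Of the genes called, Gdf15 and Icam1 passed the CPM minimum only through DAC, and Fgf2 only through Ctrl. With a CPM of at least 5, 3 of 12 were higher and 1 lower. Gdf15, a stress cytokine, rose from 11 to 584 counts, by 45.2-fold (25.1 to 91.1). Id3, an inhibitor of bHLH factors, rose from 151 to 922 counts, by 5.20-fold (4.38 to 6.22). Icam1, an adhesion molecule, had 0 counts in Ctrl and 51 in DAC, a ratio of 14.5 against the same floor, with a lower counting bound of 11.4. Fgf2, a growth factor, fell from 125 to 5 counts, 29.3-fold lower (12.2 to 91.9), and F3, tissue factor, from 2575 to 1250, 2.42-fold lower (2.26 to 2.59). Cd44, the most abundant, had a ratio of 0.862. Genes of this list thus moved in both directions beside Egr1.

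The lists for AU-rich element binding and for JUN and FOS protein turnover held 0 called genes. Over all genes, 10.8% were called higher and 5.29% lower. Of 9 genes for proteins that bind AU-rich elements, Zfp36, itself an immediate early gene that promotes mRNA decay, had 712 and 1216 counts (ratio 1.46), Zfp36l2, the most abundant, 8901 and 9406 (0.901), and the stabilizer Elavl1 4498 and 4032 (0.764). The median log2 ratio of this list was -0.18. The 6 genes that act in the turnover of JUN and FOS proteins had a median of -0.50. Nedd4, the most abundant, had 24004 and 18392 counts (ratio 0.653), and Uba3, with the lowest ratio, 7053 and 4928 (0.595). Fbxw7 had 804 and 633 (0.671), and Det1, with the highest ratio, 421 and 567 (1.15).

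The nearest expressed protein-coding genes within 200 kb were listed to see whether the regions of the members moved as a whole. Of 17 neighbours, 3 were called higher and 0 lower, beside 10.8% and 5.29% over all genes. Rtn2, a reticulon gene beside Fosb, had 251 counts in Ctrl and 1088 in DAC and rose by 3.69-fold (3.22 to 4.25), while Fosb had a ratio of 0.730. Plb1, a phospholipase gene beside Fosl2, rose from 138 to 482 counts, by 2.98-fold (2.46 to 3.62), and the remaining call was Ccdc85b, which overlaps Fosl1. The neighbours of Egr1 did not share its call, since Reep2 had 43 and 63 counts (ratio 1.25, 0.834 to 1.89) and Etf1 20901 and 18251 (0.744, 0.729 to 0.759). Beside Fos, Jdp2 had the ratio of 1.55 given above and Tmed10 one of 0.692 (0.669 to 0.717). The other neighbours, Ado, Bin3, Ercc1, AI837181, Babam2, Mysm1, Prdx2, Hook2, Ddr1 and Flot1, had ratios from 0.682 (Hook2) to 1.28 (Ddr1).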

How the data were processed

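RNA-seq of DAC-treated and control CT26 cells gave 1 table per group, in which the authors deposited raw, unscaled counts for each Ensembl gene. According to the submitters' processing notes, reads were handled with STAR 2.5.3a, StringTie 1.3.1c, Trim Galore, FastQC, DESeq and Cufflinks on mm10. The methods of the study instead name CASAVA, TopHat and Bowtie and an FPKM unit. The route that made these counts, and any use of strand, are not given in the sources used here. Symbols and exon lengths came from GENCODE M21, which matched 24122 of 24223 identifiers. TMM factors were computed with edgeR 4.0.16 and size factors with DESeq2 1.42.0 in R 4.3.3, and ratios with Python 3.11.15, scipy 1.17.1 and pandas 2.3.3.

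Genes with a CPM of at least 1 in either library were tested by the 2-fold rule with an exact (Clopper-Pearson) 95% counting interval. With 1 library per group, no p-value and no left-out replicate was possible. A count of 0 was set to a floor of 3 counts for a ratio. Relative changes used the exact conditional interval of the odds ratio. The procedure was tested on simulated data. The members and gene lists were chosen with earlier results of these data known. The text names all 10 members, the called genes of each list and the nearest expressed neighbours. It also names the most abundant gene of each pathway list by the sum of both libraries. Other genes were chosen after their values were seen. Scaling, filter, fold and depth alternatives are given at the end. Sequences came from RefSeq tables for GRCm38.p6, and no protein sequence was used here.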

Additional observations from a re-analysis of the deposited data

How the results depend on the processing

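By library totals, which add 0.19 to every log2 ratio, 2 members were higher (Egr1 and Fos) and the members' median log2 ratio was 0.12. Scaling by the 8 reference genes also gave 2 and a median of 0.12. Over all genes these scalings moved the median to 0.18 and 0.17, with 1889 higher and 458 lower by totals and 1885 and 461 by the reference genes, so that 80.5% and 80.3% of the calls were higher against 67.2% as reported. Centring within GC bins left 0 members higher and a median of -0.22. A fold of 1.5 called 2 members higher and 1 lower, Egr2, and a fold of 4 called 0 higher. For the pathway genes, 16 higher became 8 with a CPM of at least 5, 27 at a fold of 1.5 and 10 at a fold of 4, and 9 lower became 5 by library totals, 5 by the reference genes, 27 at 1.5, 1 at 4 and 5 with the whole interval beyond 2-fold. The share of Fosl1 in the FOS level, 81.0% in Ctrl and 84.2% in DAC, was 75.7% and 79.8% by the longest transcript and 54.0% and 59.9% by coding length. The cause of these shifts was not tested beyond the construction of each alternative. DESeq2 size factors, upper-quartile factors, centring on all genes, counts divided by 3 and a thinned deeper library left 1 member higher and 0 lower. Egr1 ranged from 0.89 to 1.35 on the log2 scale. Depth limits Egr2, Fos and Egr3 most, whose intervals are the widest of the members. No paired analysis was possible because each group held 1 library.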

Other observations

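The members share a compact build that the choice of symbols did not use. Their median gene span was 5287 bases and their median exon number 2, against 23602 bases and 9 exons over the 11329 protein-coding genes tested. Their transcripts had a median GC content of 55.0%, against 49.7%, and a median 3′ UTR of 1208 bases, against 953. Among genes no longer than the longest member, 5429 in all, the median log2 ratio was 0.09, against -0.07 over the members.

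The pentamer ATTTA, the core of AU-rich elements that mark short-lived mRNAs, occurred in the 3′ UTR of 10 of 10 members and of 65.8% of protein-coding genes tested. Its density was 2.57 per kilobase in the members and 1.21 in those genes. The longer element TTATTTATT was present in 2 members, Fos and Fosl2, and in 7.22% of protein-coding genes. The 818 genes with this element had a median log2 ratio of -0.12, and the 10511 without it -0.01. Both sets also differed in median 3′ UTR (2072.5 and 895 bases), gene span (31982.5 and 23022 bases) and GC content (47.2% and 49.9%). The part of these features in the 2 medians was not tested.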
